A study of Homo sapiens with 4 samples.

Results

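GRIK2, NTS and NEFL are genes best known from neurons whose mRNA was measured here in A549 cells, an epithelial line from a human lung carcinoma. A kainate receptor subunit, neurotensin and neurofilament chains were chosen by name, as GRIK2, NTS, NEFL and NEFM, with their counts in the groups of the study already known. Of these 4 genes 3 are described among 15037 genes with counts, and NEFM was not analysed here. There were 4 libraries: 2 of A549 cells with a knockdown of PSME4 (PSME4 KD) and 2 of control A549 cells, labelled as an RFP knockdown (control KD). PSME4 is an activator that caps the core particle of the proteasome, and the series compared cells depleted of it with their control. The cells of all groups were grown in DMEM, and the labels give no time point, no knockdown method and no clone, nor do they say if a group's libraries are separate cultures. The p-values below therefore measure only how these libraries vary, and that variation may be technical.

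Each library held 11766371 to 15208588 counts. PSME4 itself was measured at 158 and 180 CPM (counts per 1000000 of the effective library size) in control KD and 75.3 and 85.1 CPM in PSME4 KD. On the log2 scale it fell by 1.08 (SE 0.20, edgeR adjusted p = 0.000855). Adjusted p-values are edgeR quasi-likelihood ones, after Benjamini and Hochberg over every gene tested. When control KD 1, control KD 2 or PSME4 KD 1 was left out, this edgeR p was 0.0522, 0.0599 or 0.146. All 12 markers of lung carcinoma epithelial cells had counts, and their summed level was 23857 to 24549 CPM in control KD and 25849 to 28365 CPM in PSME4 KD, led by ALDH1A1, AKR1B10 and KRT18. The epithelial markers EPCAM, at 5.42 to 7.88 CPM over the 4 libraries, and KRT19, at 1.71 to 3.78 CPM, were low. Among the 12 markers the tight junction gene CLDN2 rose (log2 fold change 1.25, SE 0.21, edgeR adjusted p = 0.000301), CLDN1 fell (−1.24, SE 0.20, edgeR adjusted p = 0.000174) and the other 10 did not pass. Neither claudin passed when PSME4 KD 1 was left out, nor CLDN1 without control KD 1 or CLDN2 without control KD 2.

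Kainate receptors are glutamate-gated cation channels built from 4 subunits. GRIK2 encodes GluK2, a subunit that forms channels by itself and whose gating is set in neurons by the auxiliary proteins NETO1 and NETO2. Neurotensin is a secreted peptide of brain and gut, cut together with neuromedin N from the precursor that NTS encodes, and it acts through the receptor NTSR1 and the sorting receptor SORT1. Neurofilaments are the intermediate filaments of axons, in which the light chain encoded by NEFL assembles with the medium and heavy chains and with alpha-internexin (INA).

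The 250 bases before the annotated start of GRIK2 and of NTS are shown as a description. Any bearing of their composition on the mRNA levels was not tested, and no window of NEFL was examined. Both windows were taken from RefSeq on GRCh38.p14, plus strand, 5′ to 3′. Capitals mark CpG dinucleotides in the GRIK2 sequence (chr6:101393458-101393707), and in the NTS sequence (chr12:85874045-85874294) the run TGACATCA and a stretch of repeated TATATA.
GRIK2: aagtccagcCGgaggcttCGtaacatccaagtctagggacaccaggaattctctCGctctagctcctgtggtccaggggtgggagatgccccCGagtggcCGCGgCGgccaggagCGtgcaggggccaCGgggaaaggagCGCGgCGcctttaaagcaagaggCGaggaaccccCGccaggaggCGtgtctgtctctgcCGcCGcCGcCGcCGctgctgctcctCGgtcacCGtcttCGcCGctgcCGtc
NTS: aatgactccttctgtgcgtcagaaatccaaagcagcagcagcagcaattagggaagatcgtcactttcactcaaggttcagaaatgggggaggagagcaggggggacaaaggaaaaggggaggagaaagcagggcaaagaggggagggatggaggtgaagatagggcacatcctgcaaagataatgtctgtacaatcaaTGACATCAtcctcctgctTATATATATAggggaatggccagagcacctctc

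The GRIK2 window held 68% G and C with 25 CpG dinucleotides, more CpG than 78.4% of the 35116 RefSeq windows of this length. The NTS window held 49.2% G and C with 2 CpG dinucleotides, more than 14.7% of the windows. A second annotated start of GRIK2 had 9 CpG dinucleotides in its window, more than 45.9% of the windows, and 52% G and C. Which start was used in these cells was not tested. Motifs were searched as exact letters on both strands. TGACATCA, a relative of the cAMP response element TGACGTCA, lay 51 bases before the NTS start and occurs in 2.37% of all windows. TATATA, of the kind that positions transcription starts, was found from 33 bases before that start in overlapping copies and occurs in 3.73% of windows. Both were chosen with the NTS sequence in view. Neither was found before GRIK2, and no window of either gene held the AP-1 site TGACTCA (4.20% of windows), TGACGTCA (1.65%), TATAAA (10.7%), the GC box GGGCGG (42.6%) or stretches of the REST site, TTCAGCACC (0.288%) and GGACAGCGC (0.427%).

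GRIK2 mRNA was close to the detection limit in control KD cells and readily counted in PSME4 KD cells. It had 15 and 20 counts in control KD 1 and 2 and 437 and 457 counts in PSME4 KD 1 and 2. Scaled to library size these were 1.30 and 1.72 CPM in control KD and 28.7 and 30.0 CPM in PSME4 KD. Both PSME4 KD libraries were high, and the lower of them was 16.7 times the higher control KD library. The fitted log2 fold change was 4.27 (SE 0.30), a 19.3-fold difference, and the highest value of the 13497 genes tested. No p is given for GRIK2, NTS or NEFL because this contrast chose them. The control KD level rests on 35 counts in all, with an exact Poisson 95% interval of 24.4 to 48.7 that covers counting error only. GRIK2 spans positions 101393708 to 102070083 of chromosome 6 (GRCh38) and overlaps the RefSeq entries ACTG1P18 and LOC101927388. The sources used here do not say if counting used strand, so reads in such overlaps may be lost or shared.

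NTS mRNA differed the other way, well expressed in control KD cells and low in PSME4 KD cells. It had 501 and 419 counts in control KD 1 and 2 and 67 and 78 counts in PSME4 KD 1 and 2, or 43.3 and 36.0 CPM against 4.40 and 5.12 CPM. The groups did not overlap, and the lower control KD library was 7.04 times the higher PSME4 KD library. The log2 fold change was −3.06 (SE 0.25), an 8.32-fold difference, and NTS ranked 8 from the lowest value of all tested genes. The gene spans positions 85874295 to 85882992 of chromosome 12 and overlaps no other RefSeq gene. Its transcript has 34.6% G and C, less than all but 1.23% of the tested genes with a known content. With each library corrected for its trend on G and C content, the log2 value of NTS was −2.71.

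NEFL, the neurofilament light chain, was lower in PSME4 KD cells but still measured with ease. It had 557 and 465 counts in control KD 1 and 2 and 144 and 129 counts in PSME4 KD 1 and 2. The CPM were 48.2 and 40.0 in control KD and 9.46 and 8.46 in PSME4 KD, again without overlap. The log2 fold change was −2.30 (SE 0.23), a 4.92-fold difference. NEFL ranked 43 from the lowest value of all tested genes and lies on chromosome 8 at positions 24950955 to 24956612, where it overlaps the microRNA entry MIR6841. Its 48.2% G and C is near the middle of the tested genes, and the correction for G and C content left it at −2.32.

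The libraries of the groups were apart for all 3 genes, as they were for 55.0% of the genes tested, so the lack of overlap is not particular to them. A log2 change of at least 2 in either direction was seen in 0.748% of the tested genes and was part of how these genes came to be chosen. The authors' deposited table gives log2 values, as control KD relative to PSME4 KD, of −4.29 for GRIK2, 3.05 for NTS and 2.29 for NEFL. The libraries of a group differed little beside the group difference, which was part of how these genes were chosen. The log2 ratio of control KD 2 to control KD 1 was 0.41 for GRIK2, −0.27 for NTS and −0.27 for NEFL, and that of PSME4 KD 2 to PSME4 KD 1 was 0.06, 0.22 and −0.16. With any 1 library left out the log2 fold change stayed between 4.08 and 4.50 for GRIK2, between −3.18 and −2.92 for NTS and between −2.42 and −2.16 for NEFL.

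**Figure D1:**
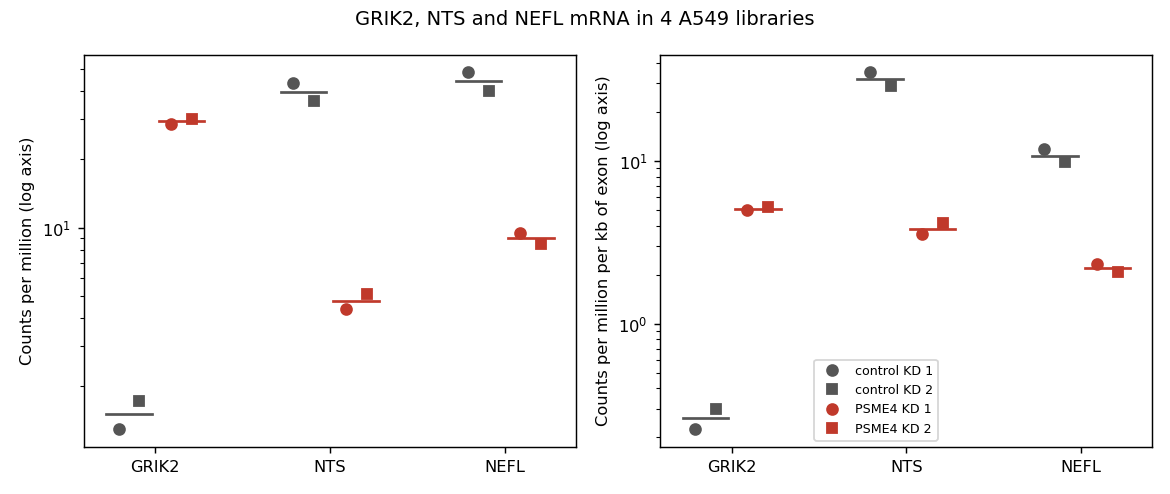
Left, CPM, and right, CPM per kb of exon, of GRIK2, NTS and NEFL in the 4 libraries on log axes, with group means as lines. GRIK2 stands at 1.30 and 1.72 CPM in control KD and at 28.7 and 30.0 CPM in PSME4 KD, while NTS and NEFL are lower in both PSME4 KD libraries.

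The order of the 3 transcripts by level differed between the groups only in the place of GRIK2, since NTS was above NEFL per kb of exon in each library. As the genes were chosen on this contrast, the change of order is a description. Levels were compared between genes only as CPM per kb of exon. In control KD 1 and 2 NTS was highest at 35.0 and 29.1 CPM per kb, NEFL followed at 11.8 and 9.80, and GRIK2 was lowest at 0.225 and 0.298. In PSME4 KD 1 and 2 GRIK2 was highest at 4.98 and 5.20 CPM per kb, NTS had 3.55 and 4.13, and NEFL had 2.32 and 2.07. Neighbours in either order did not overlap between the libraries of a group. The order of NTS and NEFL rests on their annotated exon lengths (1239 and 4082 bases), since NEFL was above NTS in CPM in each library. Among 12973 tested genes with a known exon length, GRIK2 went from above 3.83% of genes in control KD to above 48.3% in PSME4 KD. NTS went from above 85.2% to above 41.7%, and NEFL from above 66.0% to above 29.8%.

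Other ionotropic glutamate receptor genes did not pass the test. Of 24 receptor and auxiliary subunit genes besides GRIK2, 10 had counts and 7 could be tested. None passed in edgeR, DESeq2 or limma voom. Of all tested genes, 10.6% passed in edgeR. The median control KD level of the 7 genes was 4.49 CPM, so the lack of calls among so few says little. At an unadjusted edgeR p under 0.05 there was 1 of the 7, beside 26.2% of all tested genes. That gene was GRIN2D, an NMDA receptor subunit, at 3.20 and 3.78 CPM in control KD and 4.99 and 6.50 CPM in PSME4 KD (log2 fold change 0.72, SE 0.32, edgeR adjusted p = 0.151). The median log2 fold change of the 7 genes was −0.01, and that of all tested genes was −0.0021.

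Among kainate receptor genes, GRIK5, a subunit that needs a partner such as GluK2, had between 0 and 0.430 CPM in the 4 libraries and could not be tested. NETO2, the kainate receptor auxiliary subunit, was abundant in every library, at 195 and 210 CPM in control KD and 180 and 149 CPM in PSME4 KD. Its log2 value of −0.30 (SE 0.19) did not pass and was −0.14 without PSME4 KD 2. NETO1 had at most 0.516 CPM. Per kb of exon, NETO2 exceeded GRIK2 by 116 and 94.3 times in control KD 1 and 2 and by 4.82 and 3.83 times in PSME4 KD 1 and 2. GRIN2B, GRID1, CACNG4, CACNG8 and CNIH3 had log2 values between −0.77 and 0.42 that did not pass.

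Of the genes that process, carry or receive neurotensin and like peptides, few passed the test. Of 28 such genes besides NTS, 20 had counts, 18 were tested, none rose and 3 fell, or 16.7% called beside 10.6% of all tested genes. The median log2 fold change of the 18 genes was −0.26, and by sign alone 6 were higher and 12 lower. The proprotein convertase PCSK5, a cutter of precursors at basic residues, was at 32.6 ± 3.46 CPM (SD, n = 2) in control KD and fell to 20.4 ± 2.01 CPM (−0.68 on the log2 scale, SE 0.22). Carboxypeptidase M, gene symbol CPM, which trims basic residues from peptides at the cell surface, fell from 60.1 ± 5.53 to 37.3 ± 1.74 in the unit CPM (−0.69, SE 0.20). SORCS2, a relative of SORT1, fell by 2.04 on the log2 scale (SE 0.56), from 15 and 17 counts in control KD to 6 and 4 counts in PSME4 KD. SORCS2 passed the filter on low counts only through control KD, so a call as higher was hardly possible. With at least 50 counts required in 2 libraries SORCS2 was not tested, and the list had 2 calls. The edgeR adjusted p-values of PCSK5, carboxypeptidase M and SORCS2 were 0.0451, 0.0285 and 0.0198. PCSK5 did not pass with library size as the only scaling (adjusted p = 0.0513), and DESeq2 gave SORCS2 no adjusted p.

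The neurotensin receptors NTSR1 and NTSR2 were not analysed here. SORT1, which binds neurotensin and sorts proteins to lysosomes, had 72.5 and 75.9 CPM in control KD and 65.4 and 84.9 CPM in PSME4 KD, and the groups overlapped. The convertase PCSK1 had 3.03 and 4.13 CPM in control KD and 4.53 and 5.25 CPM in PSME4 KD (log2 value 0.45, SE 0.33, not past the threshold, and 0.24 without control KD 1 or 0.70 without control KD 2). Carboxypeptidase E (CPE), which finishes peptide hormones in secretory granules, had 13.9 and 16.6 CPM against 14.3 and 15.4 CPM. Of 25 other neuropeptide genes 8 had counts and 4 were tested. None of these passed in edgeR, DESeq2 or limma voom. NMB (neuromedin B), the 1 gene whose unadjusted edgeR p was under 0.05, had 41.3 and 24.3 CPM in control KD and 22.4 and 23.4 CPM in PSME4 KD. After the correction for G and C content NMB passed (log2 fold change −0.69).

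In the filament family, alpha-internexin was lower along with NEFL. Of 21 intermediate filament and linker genes besides the neurofilament light and medium chains, all 17 with counts were tested, none rose and 1 fell, which is 5.88% beside the background of 10.6% in either direction. The median log2 fold change was −0.08. The gene that fell was INA, with 81.9 and 90.9 CPM in the control KD libraries and 40.3 and 37.3 CPM in the PSME4 KD libraries. Its log2 fold change was −1.16 (SE 0.20, edgeR adjusted p = 0.000481). The call ended without control KD 2 (−1.07, adjusted p = 0.0518 by edgeR) and without PSME4 KD 1 (−1.21, adjusted p = 0.0980 by edgeR), and held without either of the other libraries.

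Per kb of exon INA was above NEFL in each library, by 2.15 and 2.87 times in control KD 1 and 2 and by 5.38 and 5.56 times in PSME4 KD 1 and 2. Vimentin (VIM), the main filament of mesenchymal and many cultured cells, had 910 and 973 CPM in control KD and 1070 and 1044 CPM in PSME4 KD (log2 value 0.17, SE 0.19), which did not pass. Peripherin (PRPH), a filament of peripheral neurons, had 3.37 and 1.72 CPM in control KD and 2.30 and 1.71 CPM in PSME4 KD. Nestin (NES), a filament of neural precursors, had 0.263 to 1.03 CPM over the 4 libraries. The linkers DST, PLEC and MACF1 and the lamins did not pass either.

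**Figure D2:**
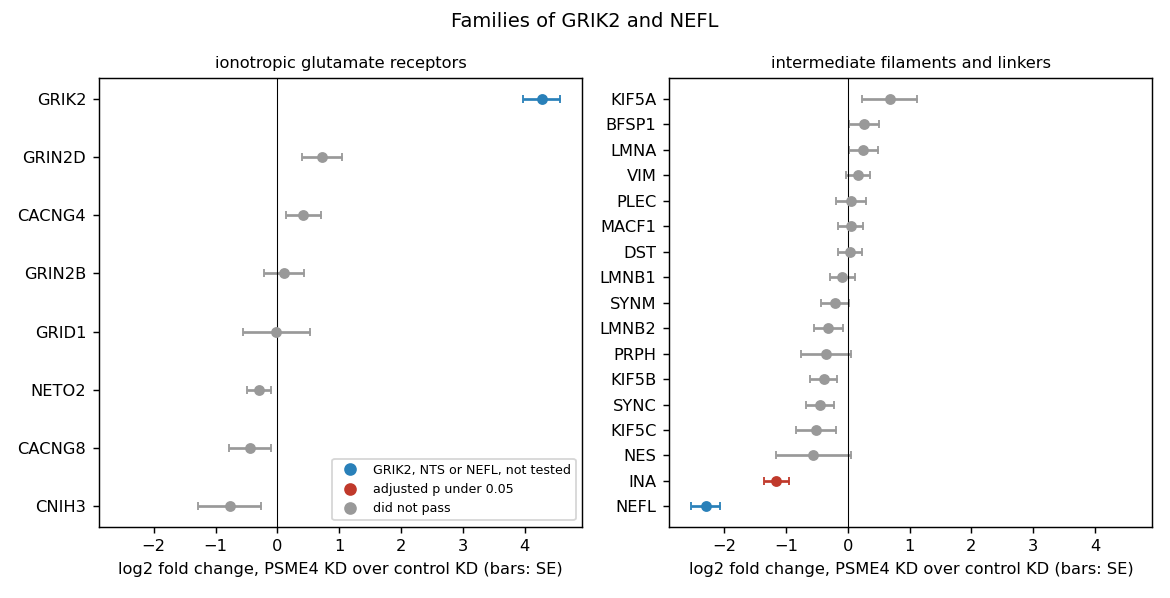
Log2 fold changes of PSME4 KD over control KD with their SEs for the tested ionotropic glutamate receptor genes (left) and all but 1 of the tested intermediate filament and linker genes (right). GRIK2 at 4.27 and NEFL at −2.30 were chosen on this contrast, so their place outside the other genes of their panels follows from that choice. INA at −1.16 is the other filament gene that fell.

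Several mRNAs known from neurons were abundant in all 4 libraries with no call between the groups. Of 37 neuronal marker genes 23 had counts and 19 were tested, of which 1 rose, 2 fell and 16 did not pass, with a median log2 fold change of −0.01. Those called were 15.8% of the tested markers, where 10.6% of all tested genes were called. MAP2, a microtubule-associated protein of dendrites, was at 10.4 ± 1.17 CPM (SD, n = 2) in control KD and rose to 19.1 ± 1.75 CPM (0.87 on the log2 scale, SE 0.24, edgeR adjusted p = 0.0210). STMN3, a stathmin that binds tubulin, fell from 22 and 21 counts to 10 and 7 counts (−1.72, SE 0.49, adjusted p = 0.0245 by edgeR), and DESeq2 gave it no adjusted p. STMN3 passed the filter on low counts only through control KD, so a call as higher was hardly possible. With at least 50 counts required in 2 libraries STMN3 was not tested, and the list had 2 calls. INA, described above, was the other gene of the list that fell.

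UCHL1, a neuronal deubiquitinase also seen in lung carcinoma, had 1323 and 1109 CPM in control KD and 1164 and 1097 CPM in PSME4 KD. SNAP25, a synaptic membrane fusion protein, had 105 and 133 CPM in control KD and 134 and 120 CPM in PSME4 KD. The neural adhesion gene CNTN1 had 398 and 667 CPM in control KD and 762 and 731 CPM in PSME4 KD, a log2 value of 0.49 (SE 0.22) that did not pass, but did after the correction for G and C content (0.78). Tubulin beta 3 (TUBB3) had 24.8 and 24.2 CPM against 30.3 and 21.8 CPM, and enolase 2 (ENO2) had 31.6 and 23.3 CPM against 26.6 and 28.3 CPM. The groups overlapped for UCHL1, SNAP25, TUBB3 and ENO2.

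**Figure D3:**
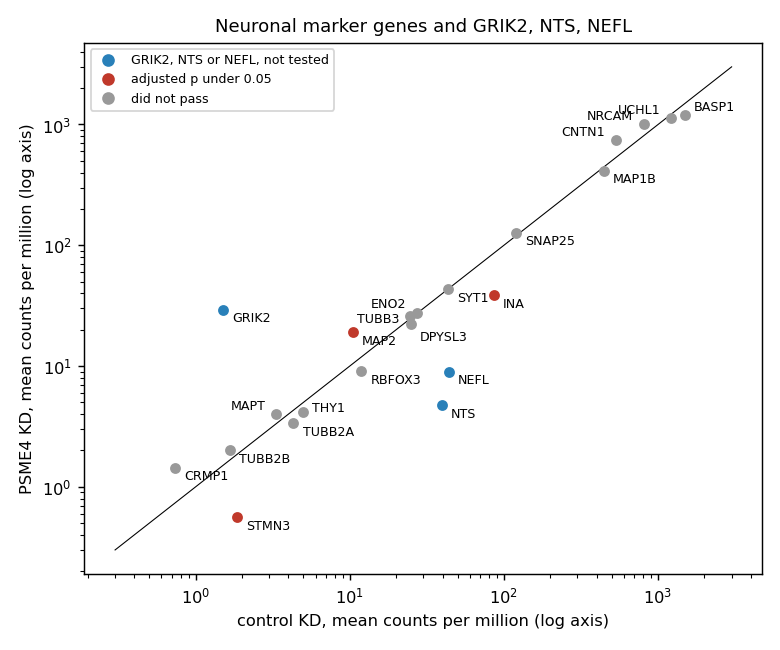
Mean CPM in control KD (x axis) and PSME4 KD (y axis), both on log axes, for the 19 tested neuronal marker genes and for GRIK2, NTS and NEFL, with a line of equal levels. Most markers lie near the line, MAP2, which rose, and CRMP1, which did not pass (log2 value 0.97, SE 0.50), lie above it, and INA and STMN3 lie below it.

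Markers that define neurons as cells were measured in part. Of 10 such markers 3 had counts, namely RBFOX3, SNAP25 and SYT1, and their summed level was 156 and 194 CPM in control KD 1 and 2 and 193 and 165 CPM in PSME4 KD 1 and 2. Of 9 neuroendocrine cell markers 3 had counts, with sums of 21.5 and 22.4 CPM in control KD and 14.6 and 17.7 CPM in PSME4 KD. Of 9 glial and Schwann cell markers 2 had counts, with sums of 30.8 to 37.8 CPM over the libraries, nearly all from MBP. Of 7 leukocyte markers 3 had counts (29.1 to 39.4 CPM), and of 10 endothelial and fibroblast markers 3 had counts (24.0 to 32.7 CPM). In the last group COL1A1 rose (log2 fold change 0.73, SE 0.24) and PDGFRA fell (−1.34, SE 0.43), with adjusted p-values of 0.0479 and 0.0453 by edgeR. After the correction for G and C content alone neither passed (0.49 and −1.21). By DESeq2 COL1A1 did not pass (adjusted p = 0.0566) and PDGFRA got no adjusted p. COL1A1 did not pass by limma voom (adjusted p = 0.0528), nor PDGFRA by edgeR without the filter on low counts (adjusted p = 0.0513). With 1 library left out the log2 values were 0.68 to 0.81 for COL1A1 and −1.80 to −0.97 for PDGFRA. The part of such cells in the values of GRIK2, NTS and NEFL was not tested. In these libraries of whole cultures, fewer cells with a transcript and less of it per cell cannot be told apart.

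The 23 markers of neuroendocrine lung cells and tumours included 8 with counts and 5 that could be tested. None passed by edgeR, DESeq2 or limma voom. The granin CHGB, a protein of secretory granules, was the 1 gene whose unadjusted edgeR p was under 0.05, at 6.32 and 8.68 CPM in control KD and 6.31 and 3.02 CPM in PSME4 KD (log2 value −0.69, SE 0.33, adjusted p = 0.180 by edgeR). The Notch ligand DLL3 had 14.7 and 13.3 CPM against 8.01 and 14.2 CPM.

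REST is the repressor that keeps many neuronal genes silent outside the nervous system, and its own mRNA overlapped between the groups. It had 41.4 and 60.8 CPM in control KD and 49.8 and 47.9 CPM in PSME4 KD. Its corepressor RCOR1 had 49.3 and 66.0 CPM against 57.8 and 57.6 CPM. Of 23 genes of REST and its corepressors 22 were tested, and 1 rose and 1 fell, 9.09% beside the 10.6% of all tested genes. The deacetylase HDAC2 was at 106 ± 6.14 CPM (SD, n = 2) in control KD and fell to 69.3 ± 0.508 CPM (−0.62 on the log2 scale, SE 0.19, adjusted p = 0.0396 by edgeR). The phosphatase CTDSP1, which acts with REST, was at 8.37 ± 0.280 CPM (SD, n = 2) in control KD and rose to 14.4 ± 0.640 CPM (0.79, SE 0.25, adjusted p = 0.0426 by edgeR). Neither passed after the correction for G and C content (−0.36 and 0.56), and CTDSP1 did not pass by DESeq2 (adjusted p = 0.0545).

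The 8 list genes that passed in these comparisons were PCSK5, CPM, SORCS2, INA, MAP2, STMN3, HDAC2 and CTDSP1. In edgeR fits with 1 library left out, only INA kept its call in any, without control KD 1 and without PSME4 KD 2. Without PSME4 KD 1 43 genes passed in the whole table, without control KD 1 53, without control KD 2 94 and without PSME4 KD 2 281, where all libraries gave 1426.

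Neither GRIK2, NTS nor NEFL had a change of like size among the neighbours examined. These 3 genes were chosen on this contrast, and 0.748% of all tested genes had a log2 change of at least 2 in either direction. Neighbours were thus unlikely to match them, and the gap says little about the loci. The 5 nearest tested genes on each side were taken for each. Around GRIK2, within 3088 kb, none of 10 rose and 2 fell, with a median log2 fold change of −0.35 beside −0.02 for the 697 tested genes of chromosome 6 without GRIK2, and a highest value of 0.40. Those that fell were TSTD3 (−1.29, SE 0.31) and the cyclin gene CCNC (−0.65, SE 0.20). Around NTS, within 3464 kb, none of 10 rose and 3 fell, with a median of −0.51 beside 0.0064 for the 725 tested genes of chromosome 12 without NTS. They were RASSF9 (−0.77, SE 0.24), the nearest at 37.9 kb, LRRIQ1 (−1.42, SE 0.36) and TMTC3 (−0.82, SE 0.21). Around NEFL, within 1493 kb, none of 10 rose and 1 fell, with a median of −0.47 beside −0.35 for the 476 tested genes of chromosome 8 without NEFL. It was STC1, the hormone stanniocalcin (−0.97, SE 0.21). Of all tested genes 10.6% were called. In edgeR the adjusted p of the 6 neighbours lay from 0.00429 to 0.0425. The calls of CCNC, RASSF9 and TMTC3 ended after the correction for G and C content (−0.41, −0.43 and −0.42), and RASSF9 did not pass by DESeq2. With 1 library left out none of the 6 passed except STC1 without PSME4 KD 2. TSTD3 was at −0.90 without control KD 1.

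**Figure D4:**
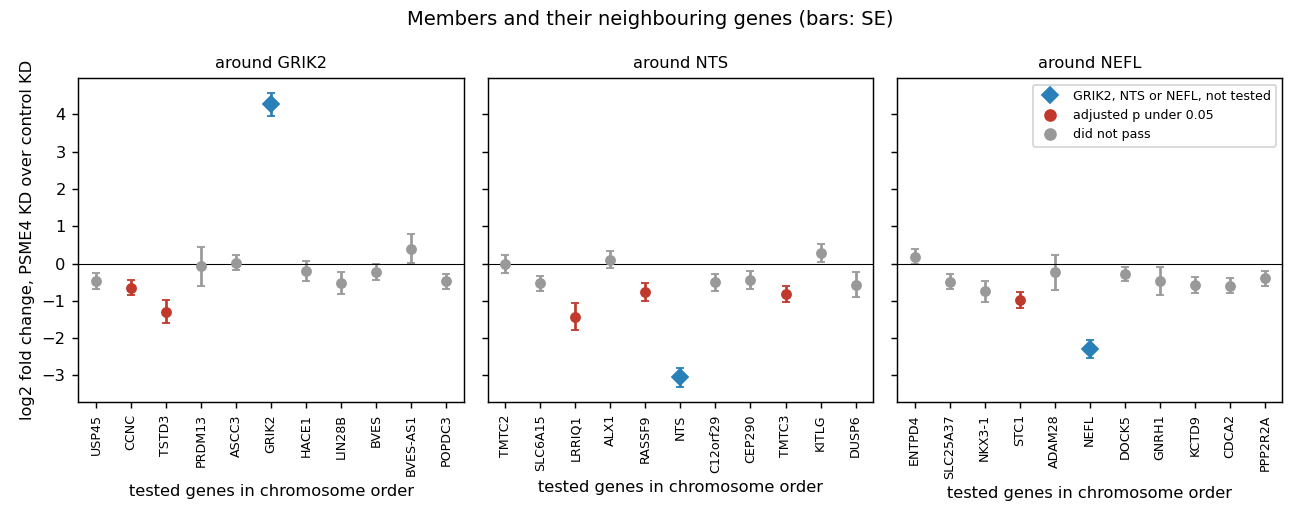
Log2 fold change of PSME4 KD over control KD with its SE for GRIK2, NTS and NEFL (diamonds) and for the 5 nearest tested genes on each side, in chromosome order. The neighbours lie between −1.42 and 0.40, while the diamonds lie at 4.27, −3.06 and −2.30. The genes shown as diamonds were chosen on this contrast.

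The genes with the pattern most like each of the 3 were taken among those with a mean of at least 5 CPM, by the Euclidean distance of log2 CPM over the 4 libraries, each gene centred on its mean. Such a distance mostly ranks genes by the contrast that chose GRIK2, NTS and NEFL, so it is a description. Nearest to GRIK2 were ANXA10, an annexin (distance 1.01), OLFML3 (1.70), GALNTL6 (1.79), LAYN (1.87) and UGT1A6 (1.89), the last at a locus whose genes share exons. ANXA10 had 1.64 and 0.946 CPM in control KD and 18.5 and 14.7 CPM in PSME4 KD. Nearest to NTS were UPK1B (0.65), SERPINB4 (0.70), CXCR4 (0.71), NEFL itself (0.79) and SLFN11 (0.84). Nearest to NEFL were SCARA5, a scavenger receptor (0.11), CXCR4 (0.20), UPK1B (0.23), SERPINB4 (0.23) and the kinase PAK3 (0.25). SCARA5 had 14.7 and 12.3 CPM in control KD and 3.09 and 2.69 CPM in PSME4 KD. CXCR4, UPK1B and SERPINB4 were thus near to both NTS and NEFL, and SERPINB4 may share reads with the close paralog SERPINB3.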

How the data were processed

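Polyadenylated RNA was sequenced from 4 A549 libraries, grouped by the sample titles. Per the labels' protocols, libraries were made with the Lexogen SENSE kit for mRNA. The submitters' processing notes name cutadapt, STAR, DESeq2 and build hg38; for the read counter, strand setting and annotation, the sources used here give nothing. The authors deposited whole-number counts per gene, signal values that are the counts divided by a size factor, regularised log2 values (not used), and their own log2 fold change, quoted for 3 genes, with p-values (not used). The largest count in each row was at least 6, so low genes had been filtered before deposit.

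The count test was edgeR 4.0.16 in R 4.3.3 (filterByExpr, 13497 genes kept; TMM; glmQLFit and glmQLFTest with the group as the only term), with Benjamini-Hochberg adjustment over all tested genes and a threshold of 0.05. SEs are the log2 fold change over the square root of F. Libraries of a group differed beyond counting noise (chi-square per degree of freedom 21.2 and 17.4). Exon length and G and C content came from GENCODE 29, known for 96.1% of tested genes, and positions from RefSeq on GRCh38.p14. Only the main edgeR fit was tested on simulated data. The genes described, the 7 lists with 173 genes, the markers and the naming rule (each list's called genes, at most 6, some fixed genes, called neighbours and the 5 nearest patterns) were chosen with earlier results of these data known. Of the list genes 1 is counted but not reported here by name. Alternatives were DESeq2 1.42.0, its size factors, library size, limma 3.58.1 voom, other filters, the replicate number as a block, a correction for G and C content (lowess, span 0.4) and each library left out.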

Additional observations from a re-analysis of the deposited data

How the results depend on the processing

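The log2 fold changes of GRIK2, NTS and NEFL kept their direction in all 9 alternatives and all 4 fits with 1 library left out, and GRIK2 lay between 4.08 and 4.50 in the latter. NTS was −2.71 with the correction for G and C content and −2.69 with that correction and the replicate block. The whole table gave 1151 to 1914 calls under the 9 alternatives, but 43 to 281 with 1 library left out, and more rose than fell without PSME4 KD 2 (192 against 89) and with library size alone (853 against 764, beside 616 against 810). PSME4 lay between −1.17 and −0.97 with 1 library left out. Same-numbered libraries did not deviate together (correlation −0.04 over 8748 genes), so the numbers are not taken as pairs; the replicate block gave 1554 calls and changed no list count. In fits with 1 library left out, the calls in the lists of peptide processing genes and of REST and its corepressors were 0 in each, those in the lists of filaments and of neuronal markers 0 to 1. The REST list gave 1 call by DESeq2 and 0 with the G and C correction, with or without the replicate block, and neuropeptides gave 1 with the correction. With the correction and the replicate block together the counts were 5 for peptide processing, 2 for neuropeptides, 7 for neuronal markers (3 higher, 4 lower) and 1 for neuroendocrine markers; the cause was not tested.

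Among genes that did not pass, the sign turned with the G and C correction for TUBB3 (−0.15), ENO2 (−0.18) and REST (0.17), and with the replicate block added these were −0.16, −0.18 and 0.18. CPE was 0.00057 with library size alone. With 1 library left out the ranges were −0.15 to 0.20 for SORT1, −0.16 to 0.10 for CPE, −0.74 to 0.22 for PRPH, −1.50 to 0.022 for NES, −0.17 to 0.33 for TUBB3, −0.20 to 0.23 for ENO2, −0.22 to 0.026 for UCHL1, −0.32 to 0.25 for REST and −0.20 to 0.23 for RCOR1. Depth limits GRIK2 in control KD (35 counts), and SORCS2 and STMN3 in PSME4 KD.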
